A study of Mus musculus with 12 samples.

Results

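The genes described here were 8 genes that glucocorticoid hormone is known to induce (Fkbp5, Tsc22d3, Zbtb16, Sgk1, Ddit4, Fam107a, Acer2 and Errfi1) and the 2 corticosteroid receptors, the glucocorticoid receptor gene Nr3c1 and the mineralocorticoid receptor gene Nr3c2. They are 10 of the 33641 genes listed, picked by symbol, and each had a value in all 12 samples. They were chosen with the genotype differences of these same samples already known, so their differences between R14del-PLN and WT-PLN hearts are given as a description with no p-value. The comparisons of RV with LV, and of the genotype difference between the ventricles, played no part in the choice and were tested. All 10 passed the filter on low values.

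Messenger RNA was sequenced from the left ventricle (LV) and right ventricle (RV) of mice that carry the human phospholamban (PLN) coding sequence at the start codon of the mouse gene, either as the wild type (WT-PLN) or lacking the arginine codon at position 14 (R14del-PLN). Phospholamban restrains the calcium pump SERCA2a of the sarcoplasmic reticulum. There were 4 groups of 3 samples: LV WT-PLN, RV WT-PLN, LV R14del-PLN and RV R14del-PLN, from mice 12 to 14 weeks old whose strain is labelled C57BL/6J. The WT-PLN controls therefore carried the human sequence too. The insertion was made in the germline and is not limited to the heart. The lines were set up with Sox2-Cre mice, in which Cre acts in the early embryo, the methods give them as a hybrid of 129/Sv-CP and C57Bl/6J, and the mutants are described as heterozygous. Hearts were flash frozen. The labels name no hormone treatment, and neither the corticosterone level nor the hour of collection is stated.

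Glucocorticoids, corticosterone in mice, enter the cell and bind the glucocorticoid receptor, which is held ready in the cytoplasm by Hsp90 and its partner proteins. The bound receptor moves to the nucleus and activates genes through a short palindromic DNA element, and the mineralocorticoid receptor recognises the same element. In cardiomyocytes the mineralocorticoid receptor also binds corticosterone, because these cells hold little of the enzyme Hsd11b2 that inactivates the hormone. Several of the induced genes feed back on the pathway, and others act on growth, metabolism and inflammation.

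To show what such an element looks like in these genes, the RefSeq promoter windows (build GRCm38.p6, 250 bases before to 50 bases after each annotated start) were searched for the 15-base palindrome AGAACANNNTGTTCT. The palindrome reads the same on both strands. Of the 10 genes, 8 had at least 1 window (18 in all), and Zbtb16 and Nr3c1 had none. The palindrome without mismatch was in 3 of all 32851 windows (0.00913%), and 1 of these 3 belonged to Sgk1. With at most 2 mismatches in its 12 fixed bases it was in 606 windows (1.84%), and it was in 4 of the 18 windows of these genes, which hold 3 separate sites, 2 in Sgk1 and 1 in Fam107a. A single arm, AGAACA or its reverse complement TGTTCT, was in 6233 windows (19.0%) and in 6 of the 18, in Fam107a, Sgk1 and Tsc22d3. The 3 sites follow in capitals for the arms, each in the direction of its gene:
Sgk1, no mismatch, chr10:21993659-21993758, plus strand: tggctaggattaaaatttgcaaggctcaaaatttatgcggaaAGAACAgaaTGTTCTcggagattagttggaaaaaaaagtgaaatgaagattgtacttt
Sgk1, 2 mismatches, chr10:21985879-21985978, plus strand: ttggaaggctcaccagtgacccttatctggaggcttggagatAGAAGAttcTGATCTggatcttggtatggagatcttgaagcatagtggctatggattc
Fam107a, 2 mismatches, chr14:8309841-8309940, minus strand: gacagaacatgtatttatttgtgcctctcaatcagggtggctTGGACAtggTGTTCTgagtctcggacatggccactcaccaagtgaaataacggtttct
The Sgk1 element without mismatch begins 189 bases before a start that RefSeq and GENCODE both place at 21993890 on chromosome 10. The other Sgk1 site lies 183 bases and the Fam107a site 119 bases before a RefSeq start. None of the 3 stretches overlaps an annotated exon, and each is intronic to longer transcripts of its gene (5, 4 and 1 transcripts in the order printed). A match of letters is no evidence of binding, and no match says only that these letters are not in the window.

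In the mouse genome GRCm38, Fkbp5 lies on chromosome 17 from 28399094 to 28517527, Tsc22d3 on chromosome X from 140539528 to 140600659 and Zbtb16 on chromosome 9 from 48654297 to 48836222. Sgk1 lies on chromosome 10 from 21882184 to 21999903 and Ddit4 on the same chromosome from 59949669 to 59951834. Fam107a lies on chromosome 14 from 8296274 to 8318023. Acer2 and Errfi1 are both on chromosome 4, from 86874396 to 86934822 and from 150853919 to 150868892. Nr3c1 lies on chromosome 18 from 39410545 to 39519421 and Nr3c2 on chromosome 8 from 76899442 to 77245012. The annotation places small or antisense genes inside Fkbp5, Errfi1 and Nr3c2, none of which the files list, and whether reads were counted by strand is not stated.

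The values are in TPM, a share of all transcripts corrected for gene length, so levels may be compared between genes as well as between samples. Each sample sums to 1000000 TPM, which leaves no record of sequencing depth. The 5 cardiomyocyte markers together held between 24936 and 38214 TPM in every sample, as heart muscle should. Mitochondrially encoded genes took between 37.3% and 54.5% of the transcripts. Their share was 44.0% to 47.3% in LV WT-PLN, 48.7% to 52.7% in RV WT-PLN and 51.1% to 54.5% in RV R14del-PLN. In LV R14del-PLN it was 51.2%, 50.4% and 37.3%, the last being the lowest of all samples. Since TPM is a share, a lower mitochondrial share leaves more TPM to all other genes. Y-linked genes summed to 0.250 TPM in one and 0.284 TPM in another of the WT-PLN samples, both numbered 1, whereas the remaining 10 ranged from 43.5 to 63.7 TPM, while the methods state male mice. Some of the results for the 10 genes, but not those of every list, are therefore also given without these samples. By its file name the RV R14del-PLN sample numbered 3 came from another sequencing run than the other 11. These are bulk samples, in which fewer cells of a type and less RNA per cell cannot be told apart.

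All 8 glucocorticoid-induced genes had a lower mean in R14del-PLN than in WT-PLN hearts, in both ventricles. Among them, for 7 of the 8 in each ventricle the 3 R14del-PLN samples lay below the 3 WT-PLN samples, the exception being Sgk1. The same was true of 8.47% of the 12526 genes tested in the LV and 5.79% in the RV. A gene was called at an adjusted p of at most 0.05 by limma and a fold of at least 1.5, and by this rule 6 of the 10 genes were called lower in the LV (Fkbp5, Tsc22d3, Zbtb16, Ddit4, Fam107a and Acer2), where 0.519% of all genes were called, 0.423% lower and 0.0958% higher. In the RV 4 of the 10 were called lower (Tsc22d3, Zbtb16, Ddit4 and Fam107a), where 0.271% of all genes were called, 0.2% lower and 0.0719% higher. The genes were picked for these differences, so nothing is read from the counts. Without LV WT-PLN replicate 2 or 3, or without LV R14del-PLN replicate 1 or 2, the LV count was 3 (Fam107a, Tsc22d3 and Zbtb16), and without RV WT-PLN replicate 2 or 3 the RV count was 2 (Fam107a and Tsc22d3). Without both WT-PLN samples numbered 1 the counts were 7 in the LV and 5 in the RV, and without the RV R14del-PLN sample from the other run the RV count was 3.

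**Figure D1:**
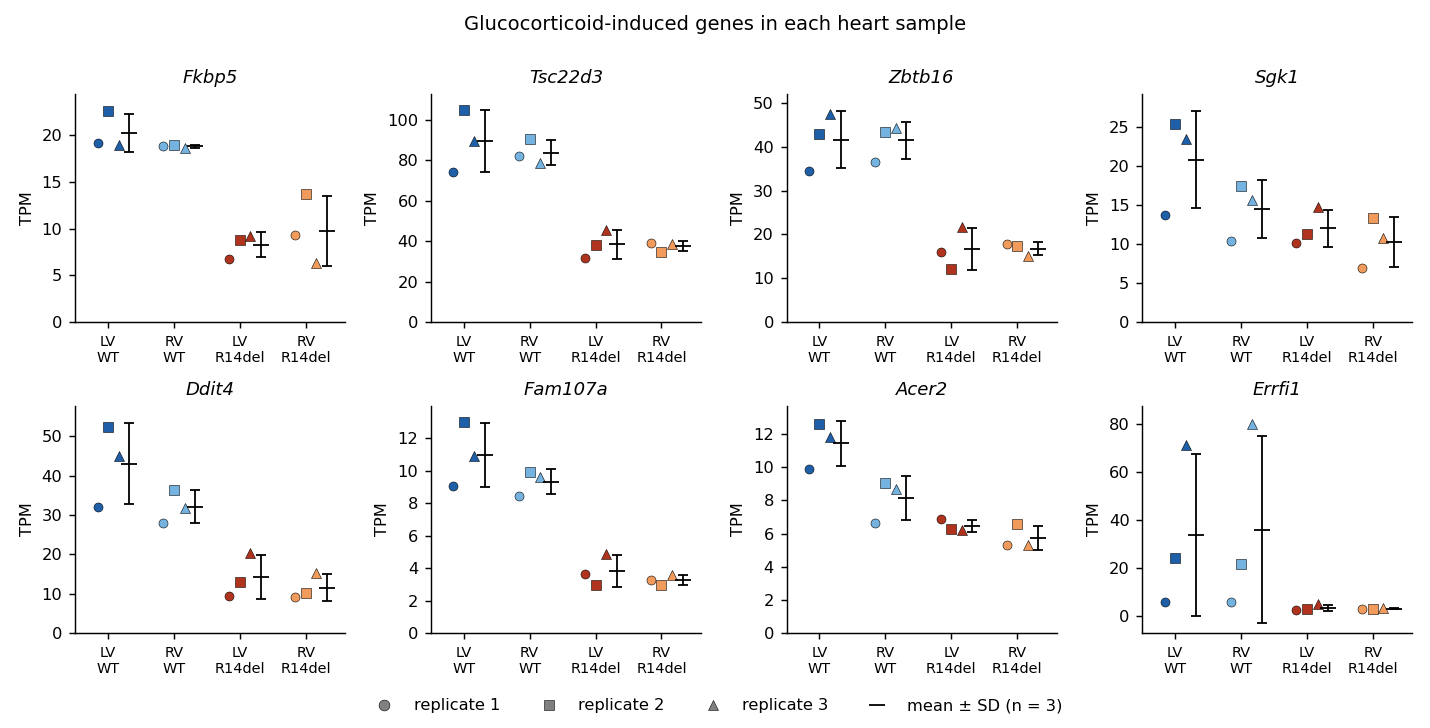
TPM of the 8 glucocorticoid-induced genes (vertical axis) in each of the 4 groups (horizontal axis), with 1 symbol per sample, its shape giving the replicate number, and bars for mean ± SD of 3 samples. For 6 genes all 6 R14del-PLN samples sit below all 6 WT-PLN samples, the Sgk1 and Acer2 points overlap across ventricles or genotypes, and the Errfi1 points of WT-PLN spread from 5.57 to 80.1 TPM.

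Among the genes that act back on the receptor, Fkbp5 encodes a co-chaperone that lowers the receptor's affinity for hormone and is one of its most responsive targets. Fkbp5 was at 19.2, 22.6 and 19.0 TPM in LV WT-PLN and at 18.9, 19.0 and 18.6 TPM in RV WT-PLN. In R14del-PLN it was at 6.76, 8.81 and 9.27 TPM in the LV and at 9.30, 13.7 and 6.32 TPM in the RV. All 6 R14del-PLN samples were below all 6 WT-PLN samples, and the RV R14del-PLN sample numbered 2 came closest. The mean fell from 20.3 ± 2.07 to 8.28 ± 1.34 TPM in the LV (SD, n = 3), a log2 difference of -1.20 ± 0.20 (SE, on log2(TPM + 1) as throughout). In the RV the means were 18.8 ± 0.193 and 9.77 ± 3.72 TPM (SD, n = 3), a log2 difference of -0.94 ± 0.20 (SE). The order of the group means was LV WT-PLN, RV WT-PLN, RV R14del-PLN and LV R14del-PLN, and the ranges of the 2 ventricles overlapped within each genotype. Set against Fkbp4, the related co-chaperone that favours hormone binding, the ratio of Fkbp5 to Fkbp4 was 0.138 ± 0.0118 and 0.148 ± 0.00221 in the LV and RV of WT-PLN hearts, compared with 0.0587 ± 0.0109 and 0.0687 ± 0.0124 in R14del-PLN (SD, n = 3). Fkbp4 itself overlapped between the genotypes, at 140 to 150 TPM in LV WT-PLN and 123 to 184 TPM in LV R14del-PLN.

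Tsc22d3 encodes GILZ, the glucocorticoid-induced leucine zipper protein, which carries part of the anti-inflammatory action of the hormone, and its mean was the highest of the 10 genes in every group. It was at 74.3, 105 and 89.5 TPM in LV WT-PLN, at 81.9, 90.6 and 78.6 TPM in RV WT-PLN, at 31.5, 38.3 and 45.4 TPM in LV R14del-PLN and at 39.1, 34.8 and 38.6 TPM in RV R14del-PLN. The genotypes were separated by 28.9 TPM in the LV and 39.5 TPM in the RV, the distance from the lowest WT-PLN to the highest R14del-PLN sample. The mean in WT-PLN was 2.33 times that in R14del-PLN hearts in the LV and 2.23 times in the RV, with log2 differences of -1.20 ± 0.15 and -1.14 ± 0.15 (SE). Tsc22d3 was called in both ventricles under all 19 alternatives computed for each.

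Zbtb16, also known as PLZF, is a zinc finger transcription factor that glucocorticoids induce in many tissues. It was at 34.6, 43.0 and 47.4 TPM in LV WT-PLN, at 36.6, 43.5 and 44.4 TPM in RV WT-PLN, at 16.1, 12.0 and 21.6 TPM in LV R14del-PLN and at 17.9, 17.4 and 15.0 TPM in RV R14del-PLN. Its mean was 41.7 ± 6.52 TPM in the LV and 41.5 ± 4.24 TPM in the RV of WT-PLN hearts, against 16.6 ± 4.80 and 16.8 ± 1.54 TPM in R14del-PLN hearts (SD, n = 3). The log2 differences were -1.30 ± 0.18 in the LV and -1.26 ± 0.18 in the RV (SE).

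Of the genes that act on growth and stress signalling, Ddit4 (REDD1) inhibits the growth kinase mTORC1 and is also induced by low oxygen and by energy stress. Ddit4 was at 31.9, 52.2 and 44.9 TPM in LV WT-PLN, at 28.1, 36.4 and 31.9 TPM in RV WT-PLN, at 9.42, 13.1 and 20.3 TPM in LV R14del-PLN and at 9.24, 10.1 and 15.4 TPM in RV R14del-PLN. The highest R14del-PLN sample in each ventricle was the one numbered 3, and it remained below the lowest WT-PLN sample by 11.6 TPM in the LV and 12.6 TPM in the RV. The log2 differences were -1.56 ± 0.26 and -1.42 ± 0.26 (SE), or a WT-PLN mean 3.01 and 2.77 times the R14del-PLN mean.

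Sgk1 encodes a serum- and glucocorticoid-regulated kinase that raises sodium transport and is a target of both receptors. It was the gene of the 8 whose genotypes overlapped. Sgk1 was at 13.7, 25.4 and 23.4 TPM in LV WT-PLN, at 10.4, 17.5 and 15.7 TPM in RV WT-PLN, at 10.1, 11.3 and 14.7 TPM in LV R14del-PLN and at 6.93, 13.3 and 10.8 TPM in RV R14del-PLN. The WT-PLN samples numbered 1 were the lowest of their groups, and both lay within the range of R14del-PLN. The log2 differences were -0.72 ± 0.26 in the LV and -0.47 ± 0.26 in the RV (SE), and neither was called. Without both WT-PLN samples numbered 1 the genotypes no longer overlapped, with WT-PLN at 23.4 to 25.4 TPM in the LV and 15.7 to 17.5 TPM in the RV, and the log2 differences were -0.98 ± 0.23 and -0.68 ± 0.23 (SE). Without LV WT-PLN replicate 2 the LV difference was -0.56, and without RV R14del-PLN replicate 1 the RV difference was -0.23.

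Errfi1 (MIG6), an inhibitor of the EGF receptor that hormones and growth factors both induce, had the widest spread. It was at 5.57, 24.2 and 71.3 TPM in LV WT-PLN and at 5.90, 21.7 and 80.1 TPM in RV WT-PLN, so that LV and RV samples with one number lay close together while numbers differed by 12.8 times in the LV and 13.6 times in the RV. In R14del-PLN it was at 2.35, 2.79 and 4.76 TPM in the LV and at 2.76, 2.91 and 3.01 TPM in the RV. The gap between the genotypes was 0.807 TPM in the LV and 2.88 TPM in the RV, and both were set by the WT-PLN samples numbered 1. The log2 differences of -2.45 and -2.58 were the lowest of the 10 genes but had an SE of 0.81, and neither was called. Without both WT-PLN samples numbered 1 they were -3.35 ± 0.49 and -3.46 ± 0.49 (SE), and Errfi1 was called in both ventricles. Without LV WT-PLN replicate 3 the LV difference was -1.62, and without RV WT-PLN replicate 3 the RV difference was -1.68.

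Of the remaining induced genes, Fam107a encodes an actin-binding protein that is induced by stress and glucocorticoids in the brain. It was at 9.02, 13.0 and 10.9 TPM in LV WT-PLN, at 8.46, 9.92 and 9.57 TPM in RV WT-PLN, at 3.62, 2.99 and 4.87 TPM in LV R14del-PLN and at 3.30, 2.98 and 3.61 TPM in RV R14del-PLN. The genotypes were apart by 4.16 TPM in the LV and 4.84 TPM in the RV, and the log2 differences were -1.31 ± 0.16 and -1.26 ± 0.16 (SE). Fam107a was called in both ventricles under all 19 alternatives computed for each. Acer2, a ceramidase of the Golgi, was at 9.92, 12.6 and 11.8 TPM in LV WT-PLN, at 6.61, 9.08 and 8.71 TPM in RV WT-PLN, at 6.88, 6.29 and 6.22 TPM in LV R14del-PLN and at 5.32, 6.58 and 5.30 TPM in RV R14del-PLN. The RV genotypes were separated by only 0.0368 TPM, between the WT-PLN sample numbered 1 and the R14del-PLN sample numbered 2. The log2 differences were -0.73 ± 0.14 in the LV and -0.43 ± 0.14 in the RV (SE), of which the former was called.

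Across both ventricles, all 6 R14del-PLN samples were below all 6 WT-PLN samples for 6 of the 8 induced genes (Fkbp5, Tsc22d3, Zbtb16, Ddit4, Fam107a and Errfi1) and for Nr3c2, as they were for 150 of the 12526 genes tested (1.2%). The WT-PLN samples numbered 1 had the lowest value of their group for 7 of the 8 genes in the LV and 6 of the 8 in the RV. The LV R14del-PLN sample numbered 3 had the highest for 7 of the 8. It also had the lowest mitochondrial share of all samples (37.3%), whose part in these values was not tested. The summed level of the 8 genes was 198 to 318 TPM in LV WT-PLN, 197 to 288 TPM in RV WT-PLN, 86.8 to 127 TPM in LV R14del-PLN and 93.9 to 102 TPM in RV R14del-PLN.

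The means of the receptors differed between the genotypes in opposite directions. Nr3c1 was at 11.6, 13.4 and 14.2 TPM in LV WT-PLN, at 11.5, 11.2 and 13.9 TPM in RV WT-PLN, at 12.0, 14.9 and 18.3 TPM in LV R14del-PLN and at 12.9, 18.9 and 13.6 TPM in RV R14del-PLN. The ranges of the genotypes overlapped in both ventricles. The highest values were those of LV R14del-PLN replicate 3, which had the lowest mitochondrial share, and RV R14del-PLN replicate 2. The log2 differences were 0.18 ± 0.17 in the LV and 0.27 ± 0.17 in the RV (SE), positive under every alternative computed and never called. Nr3c2 was at 4.38, 4.08 and 5.45 TPM in LV WT-PLN, at 5.26, 4.56 and 5.55 TPM in RV WT-PLN, at 3.25, 3.10 and 3.68 TPM in LV R14del-PLN and at 3.28, 3.81 and 3.64 TPM in RV R14del-PLN. All 6 R14del-PLN samples lay below all 6 WT-PLN samples, by 0.400 TPM in the LV and 0.745 TPM in the RV. The WT-PLN mean was 1.39 and 1.43 times the R14del-PLN mean. The log2 differences were -0.37 ± 0.13 and -0.42 ± 0.13 (SE), and neither was called. Both fell short of a fold of 1.5 on this scale, which a call requires besides the adjusted p.

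Since TPM is per length, the receptors may be set against each other. The ratio of Nr3c1 to Nr3c2 was 2.66, 3.28 and 2.60 in LV WT-PLN, 2.19, 2.47 and 2.50 in RV WT-PLN, 3.70, 4.79 and 4.98 in LV R14del-PLN and 3.95, 4.96 and 3.74 in RV R14del-PLN. All 6 R14del-PLN samples lay above all 6 WT-PLN samples. Between the ventricles, the mean ratio was 2.39 ± 0.170 in the RV and 2.85 ± 0.378 in the LV of WT-PLN hearts (SD, n = 3; two-sided exact permutation p = 0.1, the smallest p that 3 samples against 3 can give; 0.2 adjusted over the 2 genotypes). In R14del-PLN it was 4.21 ± 0.652 (RV) and 4.49 ± 0.693 (LV) (SD, n = 3; two-sided exact permutation p = 0.9, adjusted 0.9).

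**Figure D2:**
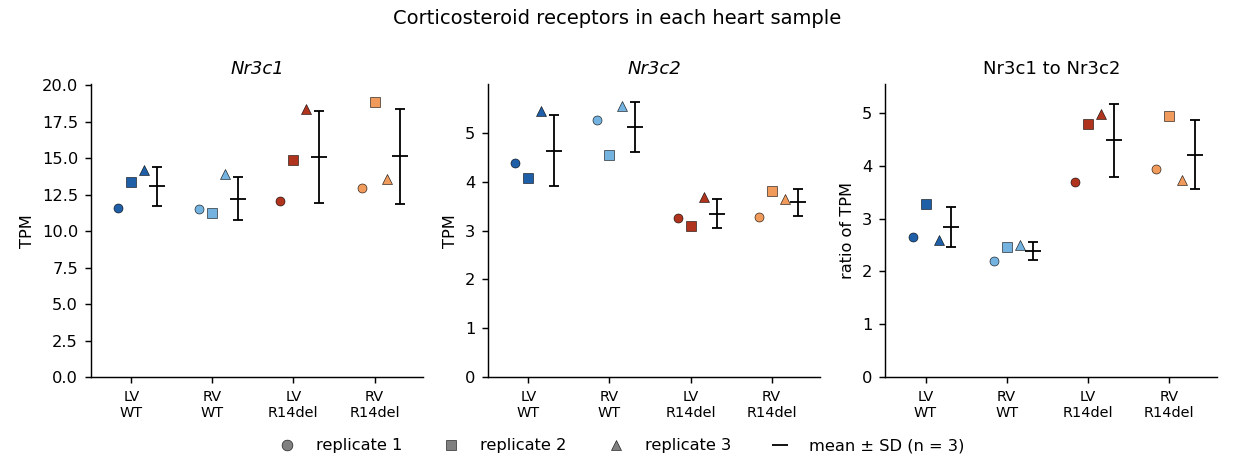
TPM of Nr3c1 and Nr3c2 and the ratio of their TPM values (vertical axes) in each of the 4 groups (horizontal axis), with 1 symbol per sample and bars for mean ± SD of 3 samples. Nr3c1 overlaps between the genotypes, Nr3c2 is at 3.10 to 3.81 TPM in R14del-PLN and 4.08 to 5.55 TPM in WT-PLN, and the ratio is at or above 3.70 in R14del-PLN only.

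To ask whether these genes differ between the chambers, RV was compared with LV within each genotype. No gene of the 12526 (0.0%) was called by limma in either genotype, and 1811 genes in WT-PLN and 823 in R14del-PLN had an unadjusted p under 0.05. With LV and RV paired by number (the mouse as a fixed factor) limma called 12 genes in WT-PLN, 7 higher and 5 lower in the RV, and 0 in R14del-PLN, and none of the 12 was among the 10 genes. Over all genes the median log2 difference of RV from LV was negative, at -0.17 for WT-PLN hearts and -0.08 for R14del-PLN hearts. Differences are therefore also given relative to that median. Quantile normalization gives all samples one distribution, so that the median nearly vanished under it tells nothing about this shift. In WT-PLN hearts Acer2 was the one gene of the 10 with an unadjusted p under 0.05. It was lower in the RV in 3 of 3 pairs of samples with one number, by -0.45 ± 0.14 on the log2 scale (SE), which is -0.28 relative to the median of all genes. Its limma adjusted p was 0.253, with a range over the alternatives of 0.149 to 0.777. Its RV and LV ranges did not overlap, as was the case for 26.1% of all genes in this comparison (25.2% with the RV lower). Sgk1 was also lower in the RV in 3 of 3 pairs, by -0.48 ± 0.26 (SE), or -0.31 relative to the median (limma adjusted p = 0.393). Ddit4 was lower in 3 of 3 pairs as well, by -0.39 ± 0.26 (SE), or -0.23 relative to the median (limma adjusted p = 0.454). The other 7 genes lay between -0.20 and 0.12, or between -0.04 (Fam107a) and 0.29 (Nr3c2) relative to the median, with limma adjusted p from 0.528 to 0.999.

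In R14del-PLN hearts the 10 differences between RV and LV ran from -0.25 (Ddit4) to 0.17 (Fkbp5), or from -0.17 to 0.24 relative to the median, and the lowest limma adjusted p was 0.952. Here the ranges overlapped for all 10, while they did not for 9.98% of all genes (8.72% with the RV lower). The genotype difference was then compared between the ventricles by the interaction of genotype and ventricle, in which 0 of 12526 genes were called by limma and 127 had an unadjusted p under 0.05. The interaction of the 10 genes ran from -0.13 (Errfi1) to 0.30 (Acer2) on the log2 scale around a median of 0.08 over all genes. None had an unadjusted p under 0.05, and the lowest was 0.162, for Acer2 (0.30 ± 0.20, SE; limma adjusted p = 1.000). The smaller genotype differences of Fkbp5, Sgk1 and Acer2 in the RV are therefore not shown to differ from those in the LV.

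**Figure D3:**
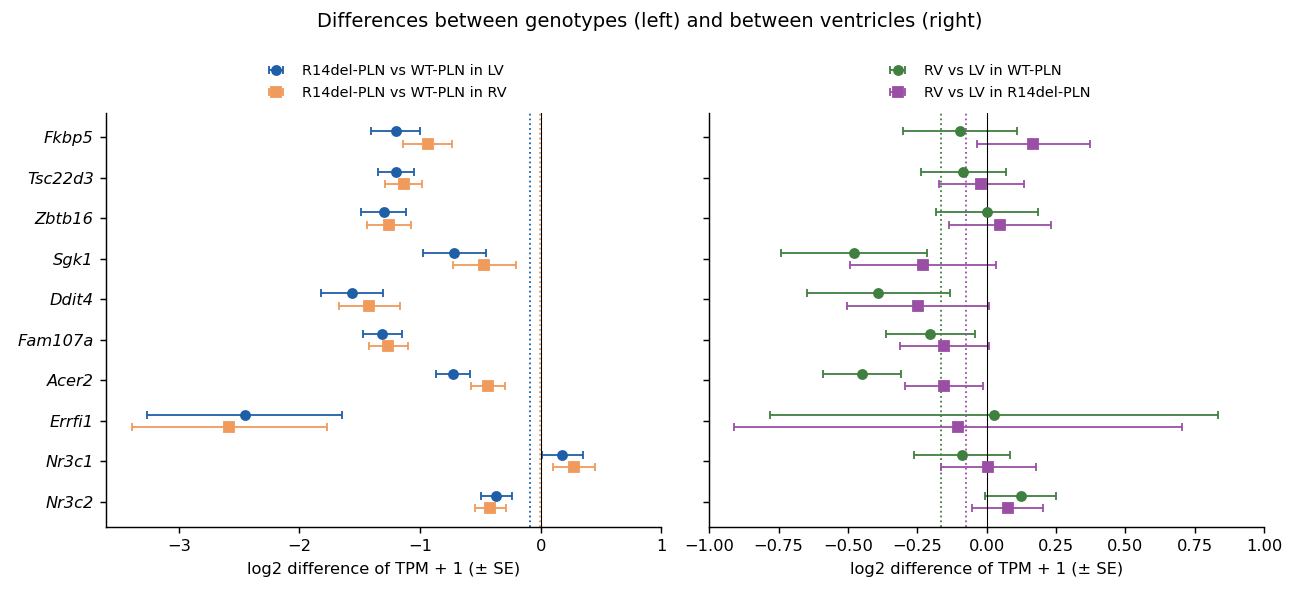
Log2 difference of TPM + 1 with its SE (horizontal axis) for each of the 10 genes (rows), between R14del-PLN and WT-PLN in LV and RV on the left and between RV and LV in each genotype on the right, with dotted lines at the median of all genes. The 8 induced genes and Nr3c2 lie left of 0 in both ventricles and Nr3c1 right of it, whereas the differences between ventricles lie between -0.48 and 0.17.

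In WT-PLN hearts the LV and RV samples that share a number resembled each other. For 8 of the 10 genes the 3 WT-PLN numbers ranked alike in the LV and the RV, as they did for 40.3% of all genes tested. In R14del-PLN hearts 3 of the 10 ranked alike (Ddit4, Fam107a and Errfi1), and 6.82% of all genes did.

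Other genes known to be induced by glucocorticoids were taken as a list of 26, compiled with earlier results of these data known, of which 24 were tested. In the LV 9 of the 24 were called lower and 0 higher, and in the RV 4 were called lower and 0 higher, against the 0.423% and 0.2% of all genes called lower. The median log2 difference of the list was -0.51 in the LV and -0.56 in the RV, beside -0.09 and -0.00 over all genes. Of the 24, 23 were negative in the LV and 21 in the RV. The 4 called in both ventricles were Per1, Klf15, Nfkbia and Sesn1. Per1, a clock gene with a glucocorticoid element of its own, was at 16.5 to 22.7 TPM in LV WT-PLN and 6.92 to 10.1 TPM in LV R14del-PLN (log2 difference -1.23 ± 0.17, SE), and in the RV at 14.8 to 20.2 and 7.01 to 8.30 TPM (-1.05 ± 0.17, SE). Klf15, a transcription factor of amino acid metabolism in heart muscle, was at 27.6 to 31.8 TPM in LV WT-PLN and 12.5 to 17.0 TPM in LV R14del-PLN (-1.02 ± 0.14, SE), with -0.99 ± 0.14 in the RV. Nfkbia, which encodes an inhibitor of NF-kappaB, differed by -0.99 ± 0.18 and -0.98 ± 0.18, and Sesn1, a sestrin that restrains mTORC1, by -0.75 ± 0.12 and -0.72 ± 0.12 (SE).

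The other 5 called in the LV only passed there, and that they differ between the ventricles was not shown, their interactions having limma adjusted p of 1.000. They were Mt2, a metallothionein that binds zinc (-1.84 ± 0.33 in the LV and -1.63 ± 0.33 in the RV, SE), and Cdkn1a, the cell cycle inhibitor p21 (-1.57 ± 0.27 and -1.42 ± 0.27, SE). They also included the transcription factors Cebpd (-1.05 ± 0.17 and -0.81 ± 0.17, SE) and Klf9 (-0.67 ± 0.12 and -0.56 ± 0.12, SE), and the small GTPase Rhob (-0.66 ± 0.12 and -0.58 ± 0.12, SE). Of the genes not called, Dusp1, a phosphatase of MAP kinases, differed by -1.23 ± 0.35 and -1.17 ± 0.35, Mt1 by -0.93 ± 0.25 and -1.05 ± 0.25, Rasd1 by -0.49 ± 0.22 and -0.63 ± 0.22, and the muscle ubiquitin ligase gene Fbxo32 by -0.49 ± 0.21 and -0.55 ± 0.21 (SE, LV then RV). For 11 of the 24 all 6 R14del-PLN samples lay below all 6 WT-PLN samples (Per1, Dusp1, Klf9, Klf15, Cdkn1a, Mt1, Mt2, Cebpd, Nfkbia, Rhob and Sesn1). The same was true of 150 of the 12526 genes tested (1.2%). Not every gene of the list was lower, since Angptl4 differed by 0.31 ± 0.47 and 0.20 ± 0.47 and Bcl6 by -0.04 ± 0.27 and 0.14 ± 0.27 (SE, both named after their values were seen). The LV count dropped to 2 without LV WT-PLN replicate 2 or 3 or LV R14del-PLN replicate 1 or 2, and the RV count to 0 without RV WT-PLN replicate 2 or RV R14del-PLN replicate 3, 1 without RV WT-PLN replicate 3 and 2 without RV R14del-PLN replicate 2.

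**Figure D4:**
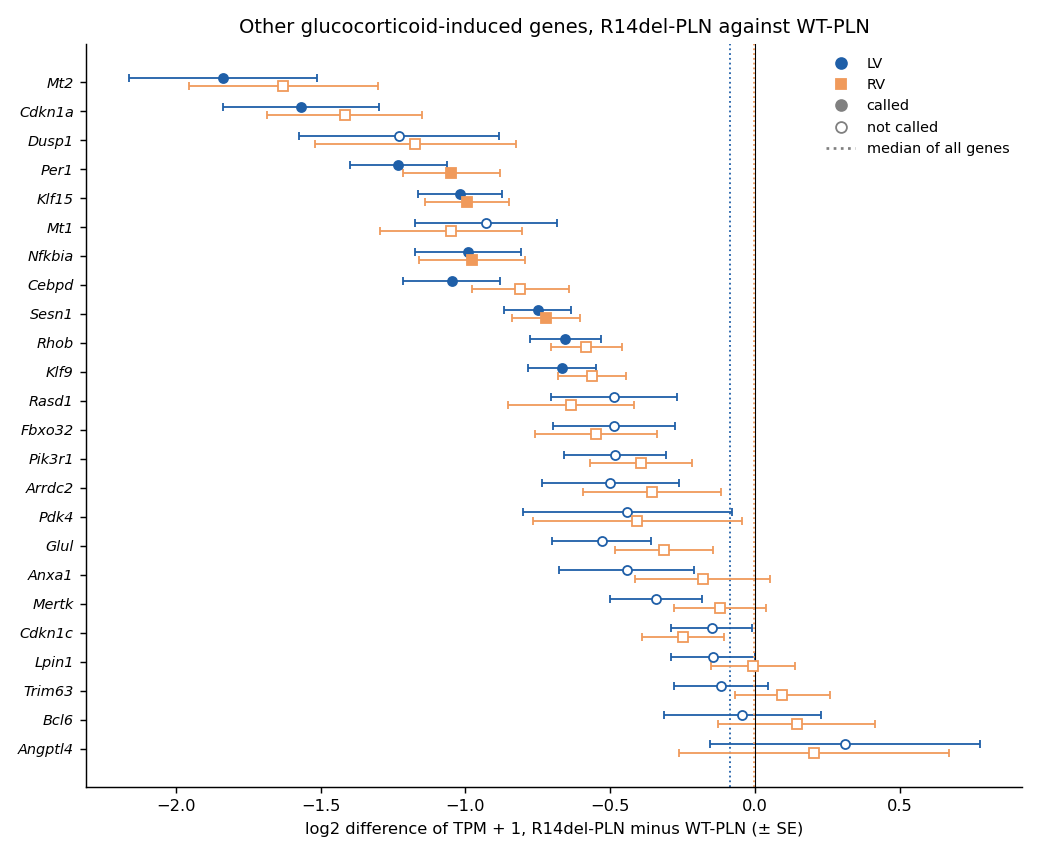
Log2 difference of TPM + 1 between R14del-PLN and WT-PLN with its SE (horizontal axis) for the 24 tested genes of the list of other glucocorticoid-induced genes (rows), in LV and RV, filled where called, with dotted lines at the median of all genes. From Mt2 at the top to Klf9 the differences run from -1.84 to -0.56, and Angptl4 at the bottom is above 0 in both ventricles.

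The proteins that hold and serve the receptor were a list of 15, of which 14 were tested and 0 were called in either ventricle (median log2 difference -0.09 in the LV and 0.02 in the RV). Of the genes of the Hsp90 chaperone and its partners, Hsp90aa1 differed by -0.49 ± 0.26 in the LV and -0.51 ± 0.26 in the RV, Hsp90ab1 by -0.31 ± 0.16 and -0.20 ± 0.16, and the co-chaperone p23 gene Ptges3 by -0.55 ± 0.13 and -0.36 ± 0.13 (SE). For Ptges3 all 6 R14del-PLN samples (24.2 to 26.8 TPM) were below all 6 WT-PLN samples (27.7 to 42.2 TPM), as for 1.2% of all genes tested. The coactivator Ncoa3 differed by -0.36 ± 0.17 and -0.33 ± 0.17 (SE). Of the enzymes, Hsd11b1, which regenerates active hormone, was at 13.8 ± 5.64 TPM in LV WT-PLN and 15.4 ± 1.92 TPM in LV R14del-PLN (SD, n = 3), and Hsd11b2, which inactivates it, was between 0.0 and 0.0756 TPM in all samples and was not tested. The genes of the estrogen and progesterone receptors were under the filter. Of 7 genes known for their response to mineralocorticoids, 4 were tested and 0 called (Usp2 -0.20 ± 0.14 and -0.29 ± 0.14, Cnksr3 -0.33 ± 0.17 and -0.11 ± 0.17, Lcn2 -0.21 ± 0.21 and -0.12 ± 0.21, Nedd4l 0.06 ± 0.15 and 0.13 ± 0.15, SE), and the sodium channel subunit genes Scnn1b and Scnn1g were listed at 0.

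Other genes also had negative genotype differences in these samples. The 8 early response genes, which are transcribed within minutes of many stimuli, had a summed level of 35.9, 118 and 313 TPM in the LV and 24.0, 89.6 and 227 TPM in the RV of WT-PLN hearts, against 23.3 to 35.1 and 18.9 to 24.3 TPM in R14del-PLN hearts. The summed level stood in the same order over the WT-PLN numbers as Errfi1, in both ventricles. Of the 8 induced genes, 6 were highest in WT-PLN number 2 in each ventricle. Number 1 was the lowest for 7 of the 8 in the LV and 6 of the 8 in the RV, as it was for the summed level. All 8 early response genes had negative genotype differences in each ventricle and 0 were called. Nr4a1 was at -3.00 ± 0.90 and -2.70 ± 0.90, Egr1 at -2.68 ± 1.24 and -2.67 ± 1.24, Fos at -2.20 ± 0.77 and -1.70 ± 0.77 and Junb at -1.79 ± 0.74 and -1.69 ± 0.74 (SE). With each sample left out in turn, the LV differences ranged from -4.04 to -2.24 for Nr4a1, -4.14 to -1.47 for Egr1, -3.02 to -1.31 for Fos and -2.57 to -0.85 for Junb, and the RV differences from -3.87 to -1.88, -4.14 to -1.44, -2.51 to -0.85 and -2.39 to -0.91. The values farthest from 0 were those without the WT-PLN sample numbered 1, and those nearest 0 without the one numbered 3. Their part in the values of the induced genes was not tested. Without both WT-PLN samples numbered 1, in which the early response genes were the lowest of WT-PLN, the log2 differences of Fkbp5, Tsc22d3, Zbtb16, Ddit4 and Fam107a were -1.24, -1.33, -1.43, -1.76 and -1.44 in the LV and -0.94, -1.15, -1.34, -1.51 and -1.33 in the RV. Most induced genes were lowest in those samples too. With each sample left out in turn, number 3 included, the LV differences ranged from -1.28 to -1.08, -1.33 to -1.07, -1.50 to -1.11, -1.83 to -1.32 and -1.46 to -1.19. In the RV they ranged from -1.19 to -0.69, -1.18 to -1.08, -1.34 to -1.18, -1.63 to -1.29 and -1.33 to -1.21.

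Of the 12 clock genes, several of which glucocorticoids also set, 11 were tested and 0 called, not counting Per1, which stood in the list of glucocorticoid-induced genes and was called in both ventricles. Ciart differed by -0.83 ± 0.17 in the LV and -0.77 ± 0.17 in the RV, Nr1d1 by -0.60 ± 0.17 and -0.38 ± 0.17, Per2 by -0.55 ± 0.19 and -0.43 ± 0.19, and Nr1d2 by -0.47 ± 0.12 and -0.32 ± 0.12 (SE). Arntl, which peaks in the opposite phase, was at 0.296 to 0.408 TPM in WT-PLN and 0.520 to 0.867 TPM in R14del-PLN hearts (named after its values were seen). The genotypes overlapped in both ventricles for Clock, Cry1, Per3 and Dbp (also named after their values were seen). The median log2 difference of the 11 was -0.23 in the LV and -0.28 in the RV. The hour of collection is not stated for either genotype, and its part was not tested.

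Of the cell type markers, none of the 37 tested was called between the genotypes. The 5 red cell markers were lower in both ventricles, with a median log2 difference of -0.62 in the LV and -0.59 in the RV and a summed level of 2087 to 2316 TPM in LV WT-PLN, 1093 to 2142 TPM in LV R14del-PLN, 1461 to 1736 TPM in RV WT-PLN and 956 to 1368 TPM in RV R14del-PLN. Atrial markers varied from sample to sample, with the highest sums in LV WT-PLN replicate 3 (1296 TPM) and RV WT-PLN replicate 2 (871 TPM), and the median differences of the atrial markers were -2.62 in the LV and 0.07 in the RV. The medians of the endothelial, fibroblast, smooth muscle, macrophage and adipocyte lists lay between -0.58 (adipocyte, LV) and 0.29 (adipocyte, RV), and those of the cardiomyocyte list were -0.03 and 0.03. The part of these in the values of the induced genes was not tested.

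The genes most like the 8 induced genes were found by the mean absolute difference between each gene's standardized log2 profile over the 12 samples and the mean profile of the 8, among the 11261 genes whose mean reached 1 TPM. The nearest was Per1, at 0.134 SD. It was followed by Tob2, which encodes an antiproliferative protein (0.144), Herpud1, an endoplasmic reticulum stress gene (0.159), Bcl2l1, which encodes the survival protein Bcl-xL (0.159), and Rnf144b, a ubiquitin ligase gene (0.165). The median over all genes was 0.914. The members themselves, which make up the mean profile, were at 0.171 (Fam107a) to 0.475 (Sgk1), while Nr3c2 was at 0.429 and Nr3c1 at 1.39. Herpud1 was at 181 ± 23.5 TPM (LV) and 156 ± 10.2 TPM (RV) in WT-PLN, compared with 97.6 ± 14.2 and 98.9 ± 16.1 TPM in R14del-PLN (SD, n = 3). Bcl2l1 was at 26.7 ± 2.94 and 24.4 ± 1.11 TPM, against 11.9 ± 2.46 and 11.1 ± 1.57 TPM (SD, n = 3). The 8 induced genes were picked with their genotype differences known, so genes nearest to their profile are lower in R14del-PLN by this choice.

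**Figure D5:**
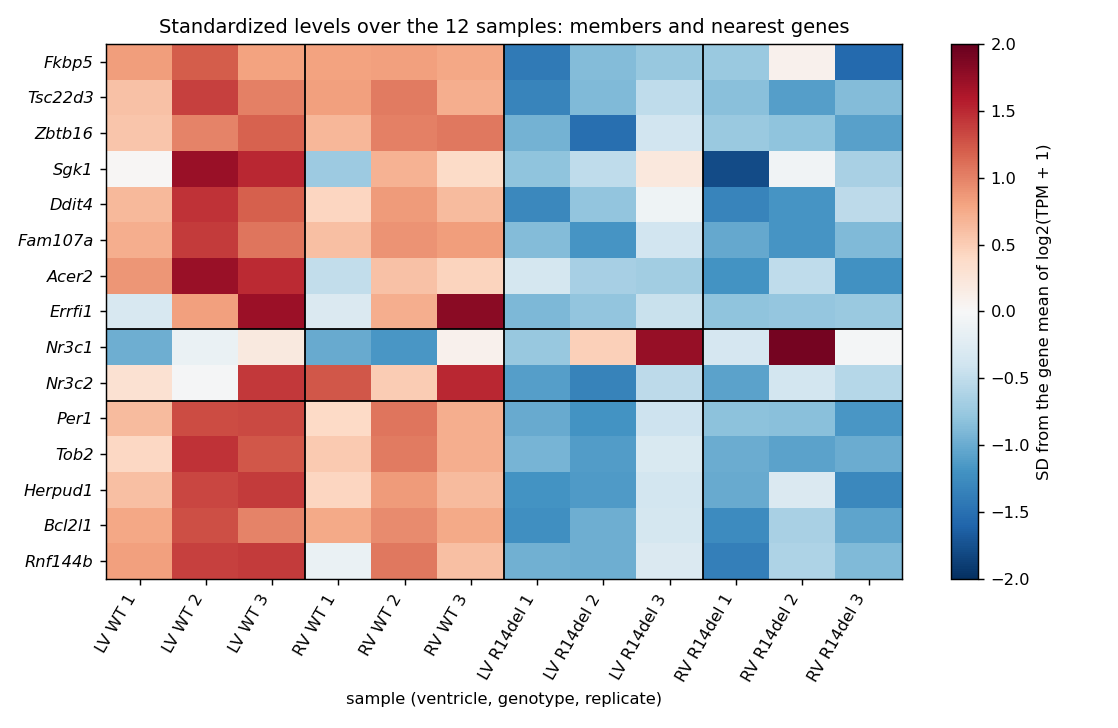
Level of each gene in each sample as SD from that gene's mean of log2(TPM + 1) over the 12 samples (color), for the 8 induced genes, the 2 receptors and the 5 nearest genes (rows, in blocks). The 6 WT-PLN columns are mostly red and the 6 R14del-PLN columns mostly blue for every row except Nr3c1, which is highest in LV R14del-PLN replicate 3 and RV R14del-PLN replicate 2.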

How the data were processed

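RNA libraries (polyA, stranded) of 12 mouse heart samples were sequenced by the authors, and the deposited values are TPM, 1 value per gene and sample, which were used as deposited. The methods name CLC Genomics Workbench and the GRCm38 genome, and the program and annotation behind the TPM values are not stated. Depth is unknown, so no interval or detection limit for counting error could be given, and p-values measure the spread between samples. Groups and replicate numbers came from the sample titles and genotype labels, and mutants titled as knock-out carry the genotype label R14del-PLN.

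Genes whose mean reached 0.5 TPM (12526 of 33641 listed, of which 22948 were above 0 in any sample) were fitted together on log2(TPM + 1) by limma (version 3.58.1, under R 4.3.3, moderated with a mean-variance trend, 4 group means, 8 residual and 5.15 prior degrees of freedom) and adjusted by Benjamini-Hochberg over all of them. Fold changes on this scale understate those of low genes. Simulated data served to test the fit. Ratios were compared by exact permutation tests. The other steps used statmod 1.5.0, scipy 1.17.1, pandas 2.3.3, matplotlib 3.10.9 and numpy 2.4.6 (Python 3.11.15). Coordinates came from GENCODE vM21 and promoter windows from RefSeq (GRCm38.p6).

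The genes and lists were chosen with earlier results of these data known. Beyond the 10 genes, the genes named were those called in each list, up to 4 others per list with the largest mean genotype difference, and the 5 nearest profiles. Genes outside this rule are marked where named, apart from Fkbp4, Hsd11b1, Hsd11b2, Scnn1b and Scnn1g, which were named for their role. The labels do not state that LV and RV samples with one number share a mouse. Deviations from the group means of such samples correlated at 0.321 to 0.657 in WT-PLN hearts, so the numbers were taken to pair LV and RV there, a pairing that comes from the data. 1 gene that this rule names is left out and not reported here, and single cell type markers are given only as list sums and medians. The alternatives were other pseudocounts, filters, scalings, variance models and sample sets, replicate blocks, and each sample left out.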

Additional observations from a re-analysis of the deposited data

How the results depend on the processing

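All genotype differences of the 10 genes kept their sign under the alternatives computed, which were other pseudocounts, filters, scalings and variance models, replicate blocks, other sample sets and each sample left out. Without a filter on low values the genes called lower were 3 of the 10 in the LV and 2 in the RV, and of the other glucocorticoid-induced genes 4 in the LV and 2 in the RV. Fitting only the groups compared gave 5 of the other genes in the LV. In the RV these were 7 under quantile normalization and 8 under upper quartile scaling. With each sample left out in turn, the calls among the 10 genes ranged from 3 to 6 in the LV and 2 to 4 in the RV, and those among the other genes from 2 to 10 and from 0 to 4. The alternatives for the listed genes and the mouse as a fixed factor were chosen after seeing the data. Depth is unknown, so its limits could not be given.

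Between genotypes the replicate numbers do not pair the samples (mean correlation of same-numbered deviations 0.0756 in the LV and 0.138 in the RV). Between the ventricles of R14del-PLN hearts the same-numbered correlations were all positive (0.0542 to 0.389). Their range overlapped that of samples with different numbers, so whether the numbers pair LV and RV there is not settled. With the number as a block, 7 of the 10 genes were called in the LV and 4 in the RV, and 10 and 7 of the other genes. With the mouse as a block, as a random or a fixed factor, 0 of the 10 genes were called between RV and LV in either genotype or in the interaction, as without a block. Over all genes, RV against LV in WT-PLN gave 12 calls with the mouse as a fixed factor and from 0 to 3 under the other alternatives, and the interaction gave from 0 to 2 under all of them. For the ratio of Nr3c1 to Nr3c2, sign flips within the pairs gave an exact p of 0.25 in WT-PLN, the smallest 3 pairs can give, and 1.0 in R14del-PLN.

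Differences between RV and LV changed sign only where they were small or imprecise, and the cause was not tested. Over all genes the median difference in WT-PLN was -0.17 in the main fit. It was -0.06 without mitochondrially encoded genes and -0.02 under upper quartile scaling. In R14del-PLN these medians were -0.08, 0.06 and -0.02. Under quantile normalization, upper quartile scaling and without mitochondrially encoded genes, the log2 difference in WT-PLN was 0.091, 0.076 and 0.035 for Fkbp5, 0.10, 0.096 and 0.052 for Tsc22d3 and 0.087, 0.079 and 0.039 for Nr3c1, and in R14del-PLN it was 0.098, 0.054 and 0.14 for Tsc22d3. Under the first and second of these the interaction was -0.0014 and -0.042 for Tsc22d3, -0.047 and -0.060 for Zbtb16 and -0.071 and -0.053 for Fam107a, and under the second -0.0024 for Nr3c1. Errfi1 was at 0.033 in R14del-PLN without mitochondrially encoded genes. Without both WT-PLN samples numbered 1, Zbtb16 was at -0.039 between RV and LV in WT-PLN and the interaction of Nr3c2 at 0.0012. With each sample left out in turn, the difference in WT-PLN ranged from -0.21 to 0.035 for Tsc22d3, -0.12 to 0.098 for Zbtb16 and -0.87 to 0.91 for Errfi1. In R14del-PLN it ranged from -0.086 to 0.42 for Fkbp5, -0.15 to 0.11 for Tsc22d3, -0.15 to 0.25 for Zbtb16, -0.42 to 0.0067 for Sgk1, -0.49 to 0.025 for Ddit4, -0.26 to 0.13 for Errfi1 and -0.15 to 0.15 for Nr3c1. The interaction ranged from -0.067 to 0.19 for Tsc22d3, -0.15 to 0.25 for Zbtb16, -0.10 to 0.42 for Ddit4, -0.077 to 0.20 for Fam107a, -1.01 to 0.77 for Errfi1, -0.064 to 0.24 for Nr3c1 and -0.15 to 0.023 for Nr3c2.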
